A study of Mus musculus with 23 samples.

Results

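The genes described here are 9 genes of heme and iron-sulfur cluster metabolism, *Hmox1*, *Blvra*, *Blvrb*, *Alas1*, *Fech*, *Slc48a1*, *Slc25a37*, *Iscu* and *Nfs1*. Their choice was by name for their roles, with earlier results of these data known. They are 9 of the 18876 genes in the count table, and all 9 were among the 18759 genes tested, at 213 counts or more in every sample used. Bulk RNA sequencing had been done on CD11b-positive cells sorted with magnetic beads from the hippocampus of female mice. All mice carried *Slc11a2* fl/fl alleles and 1 copy of *Cx3cr1* Cre-ERT2 on a mixed 129S and C57BL/6J background. The Cre recombinase was therefore driven from the *Cx3cr1* locus, which is active in microglia and other macrophages. The Slc11a2KD mice received 4 mg of tamoxifen per day by gavage for 5 days at 5 to 6 months of age, Control mice received corn oil, and tissue was taken at 15 to 18 months. Each treatment was given to hemizygous *APP/PS1* mice, an amyloid model of Alzheimer's disease, and to WT littermates. Control WT had 6 samples, Control *APP/PS1* 6 of 7 deposited, Slc11a2KD WT 5 and Slc11a2KD *APP/PS1* 5. Tamoxifen was given to knockdown mice only, so the drug and the knockdown cannot be told apart. The study refers to samples of a group as biological replicates.

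Heme is made in a pathway that begins and ends in mitochondria, where ALAS1 carries out the rate-limiting first step in cells outside the erythroid lineage and FECH inserts iron into the porphyrin ring. HMOX1 opens the heme ring and releases iron, carbon monoxide and biliverdin, and BLVRA and BLVRB are biliverdin reductases. SLC48A1 carries heme out of lysosomes after red cells are engulfed, SLC25A37 (mitoferrin) brings iron into mitochondria, and NFS1 and ISCU supply the sulfur and the scaffold on which iron-sulfur clusters are built. Macrophages of the spleen and liver use the breakdown branch to recover iron from old red cells, and microglia induce *Hmox1* under oxidative stress and after bleeding. SLC11A2 (DMT1), the gene targeted in this study, carries ferrous iron across the plasma and endosomal membranes.

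The 250 bases before the annotated start of *Blvra* are shown because *Blvra* was called by genotype in the Slc11a2KD mice, a call that was lost with a term for libraries 18 to 23 in the model. They were read from the GRCm39 genome at the canonical start in GENCODE M39, at chr2:126912317-126912566 on the + strand. The sequence runs 5′ to 3′ toward the gene, and capitals mark the motif match.
Blvra: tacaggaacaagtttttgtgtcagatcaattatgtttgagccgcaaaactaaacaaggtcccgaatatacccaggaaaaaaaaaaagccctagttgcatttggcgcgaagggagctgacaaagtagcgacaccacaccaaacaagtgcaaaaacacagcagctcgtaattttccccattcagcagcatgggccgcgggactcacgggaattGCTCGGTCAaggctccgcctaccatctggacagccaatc
Both strands were searched for TGACNNNGC (the core of the antioxidant response element), TGANTCA (the AP-1 site), CACGTG (an E-box), GCATGCGC (bound by nuclear respiratory factor NRF1) and AGGAAGTG (an ETS site), motifs picked with the results known. The *Blvra* window held TGACNNNGC on the other strand with its first base 39 bases before the start, and none of the other motifs, so no match overlapped another. TGACNNNGC was found before 4 of the 9 genes and in 10.7% of the 14309 promoters read in the same way, TGANTCA before 1 and in 4.64%, CACGTG before 1 and in 7.44%, and GCATGCGC and AGGAAGTG before 0 and in 3.09% and 2.79%. A match is a description of the letters, and regions further from the gene were not searched.

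All 10 microglial markers listed were detected in every group, with summed levels between 33492 and 50855 CPM (counts scaled to a common library size). Total counts ran from 31128643 to 54872491 per sample. The marker sum was lower in *APP/PS1*, at 33492 to 38285 CPM in Control *APP/PS1* against 43412 to 49817 in Control WT and 37267 to 40824 in Slc11a2KD *APP/PS1* against 43134 to 50855 in Slc11a2KD WT. In bulk samples, fewer cells of a type and less RNA per cell cannot be told apart. The library numbers in the labels ran from 5 to 17 in all Control samples used, while Slc11a2KD samples had numbers 1 to 4 or 18 to 23, so treatment and library number cannot be told apart. A covariate for libraries 18 to 23 sets those samples against libraries 1 to 17 and so treats libraries 1 to 4 like those of Control. *Slc11a2* itself was 27.1, 31.6, 36.9, 37.5 and 38.1 CPM in Slc11a2KD WT and 29.9 to 43.7 CPM in Control WT. In Slc11a2KD *APP/PS1* it was 37.8, 52.1, 58.2, 59.2 and 75.1 CPM against 40.0 to 48.2 in Control *APP/PS1*. The gene total was not called lower in the libraries labelled as knockdown in either genotype, and gene totals do not resolve the floxed exons, over which the study made its own checks of the knockdown.

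Divided by the length of the canonical transcript, *Iscu* had the highest level of the 9 genes, at 87.0 ± 14.2 CPM per kb (SD, n = 22). *Blvrb* (45.1 ± 12.6) and *Hmox1* (42.5 ± 8.83 CPM per kb) came next and changed places between samples, with *Blvrb* above *Hmox1* in 11 of 22. *Slc48a1* followed at 31.04 ± 5.45, above *Blvra* (28.2 ± 6.48) in 15 of 22 samples, and *Blvra* was above *Alas1* (25.7 ± 1.94 CPM per kb) in 13 of 22. *Nfs1* (11.8 ± 1.97), *Fech* (6.91 ± 0.605) and *Slc25a37* (4.27 ± 1.68 CPM per kb) were the lowest, with *Nfs1* above *Fech* in 22 of 22 samples and *Fech* above *Slc25a37* in 20. Divided by the length of all annotated exons instead, *Hmox1* came first, followed by *Slc48a1* and *Iscu*, while the order of the lower 5 genes was unchanged. Within the 4 groups, the coefficient of variation between samples was 3.81% to 7.54% for *Alas1*, 2.94% to 10.5% for *Fech* and 26.2% to 35.6% for *Slc25a37*.

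**Figure D1:**
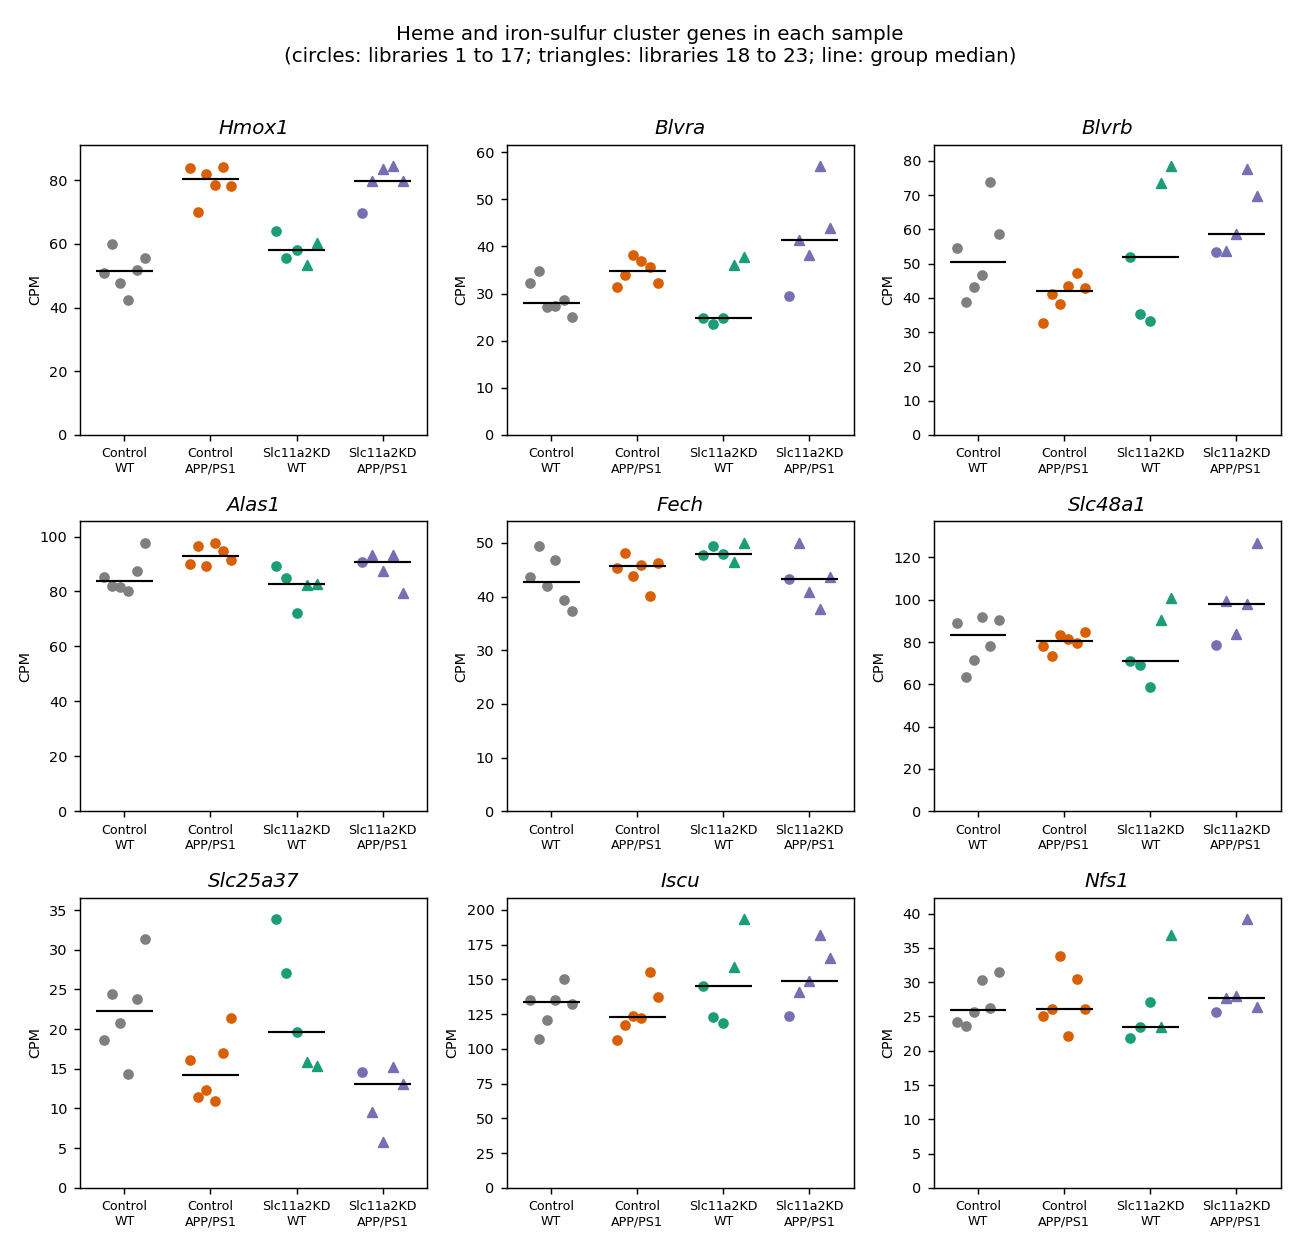
Level of each gene in CPM (y axis, from 0) in each sample of the 4 groups (x axis), with circles for libraries 1 to 17, triangles for libraries 18 to 23 and a line at the group median. The *Hmox1* points of both *APP/PS1* groups lie between 69.8 and 84.3 CPM, above all WT points, while *Blvra* and *Slc48a1* in Slc11a2KD WT are higher in both triangles than in the 3 circles.

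The first comparison asked how the genes differed between *APP/PS1* and WT microglia in Control mice, whose libraries all came from 1 run of numbers. *Hmox1*, the heme-degrading enzyme (chr8:75820241-75827217, 5 exons), was higher in *APP/PS1*. Its level was 42.5, 51.3 and 60.0 CPM (lowest, median and highest) in Control WT and 70.1, 80.2 and 84.1 CPM in Control *APP/PS1*. All 6 Control *APP/PS1* samples were above all 6 Control WT samples. The log2 fold change was 0.63 (SE 0.09, 1.55-fold, adjusted p = 4.09e-05, edgeR), and the exact permutation test gave p = 0.00216, the smallest that 6 against 6 samples allow (0.0389 after Benjamini-Hochberg adjustment over 36 tests of the 9 genes). Across all genes tested, 10.5% were called at an adjusted p under 0.05 and 8.36% had groups that did not overlap, and of the 9 genes 1 was called and 1 had groups that did not overlap.

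*Slc25a37*, the mitochondrial iron importer (chr14:69479297-69522561, 4 exons), was the other gene with an unadjusted p under 0.05 in edgeR. By the exact permutation test, *Slc25a37* (p = 0.0325), *Blvra* (p = 0.0173) and *Alas1* (p = 0.0303) were under 0.05 before adjustment over 36 tests and at 0.125 to 0.143 after it. *Slc25a37* was 14.3, 22.3 and 31.4 CPM in Control WT and 10.9, 14.2 and 21.4 CPM in Control *APP/PS1*. The ranges overlapped, with 3 of 6 Control *APP/PS1* samples below all Control WT samples, and the log2 fold change of -0.58 (SE 0.24) did not pass (adjusted p = 0.14, edgeR). The bilirubin-forming reductase *Blvra* had a log2 difference of 0.25 (95% confidence interval -0.06 to 0.56), and *Blvrb*, the other biliverdin reductase, one of -0.36 (-0.77 to 0.05). For the synthesis enzymes the log2 differences were 0.12 (-0.04 to 0.29) in *Alas1* and 0.06 (-0.13 to 0.25) in *Fech*. *Slc48a1*, *Iscu* and *Nfs1* had differences of -0.01, -0.03 and 0.02, with intervals that reached at most 0.32 to either side. None of these 7 genes passed, and the intervals leave room for changes up to those bounds.

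In the Slc11a2KD mice the same genotypes were compared, and 3 of the 9 genes were called against 16.2% of all genes tested. *Hmox1* was 53.4, 55.4, 58.1, 60.3 and 64.1 CPM in Slc11a2KD WT and 69.8, 79.8, 79.9, 83.5 and 84.3 CPM in Slc11a2KD *APP/PS1*. The groups did not overlap, the log2 fold change was 0.45 (SE 0.10, 1.36-fold), and the adjusted p was 0.00366 (edgeR). The exact permutation test gave p = 0.00794, the smallest that 5 against 5 samples allow (0.0715 after adjustment over 36 tests). *Hmox1* passed with libraries 18 to 23 as a covariate (log2 fold change 0.42, adjusted p = 0.0107) and without each sample in turn (adjusted p 0.00127 to 0.0124), but not in libraries 18 to 23 alone, where 4 *APP/PS1* samples met 2 WT samples and the fold change was 0.52 (adjusted p = 0.194).

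*Slc25a37* was lower in Slc11a2KD *APP/PS1*, at 5.80, 9.49, 13.1, 14.6 and 15.2 CPM, than in Slc11a2KD WT, at 15.3, 15.9, 19.7, 27.1 and 33.8 CPM. The groups did not overlap, though the highest *APP/PS1* sample (15.2 CPM) was close to the lowest WT sample (15.3 CPM). The log2 fold change was -0.94 (SE 0.27, 0.521-fold, adjusted p = 0.0191, edgeR; exact permutation p = 0.00794, or 0.0715 after adjustment over 36 tests). With *Hmox1*, it was 1 of 2 among the 9 genes whose groups did not overlap, against 7.08% of all genes tested. The 3 Slc11a2KD WT libraries numbered 1 to 3 held the 3 highest values and the 2 from libraries 18 to 23 the lowest. The summed level of 12 genes of the response to cell isolation was 11821 and 12023 CPM in the 2 WT samples with the most *Slc25a37* and 5588 and 7333 CPM in the 2 with the least. In Slc11a2KD *APP/PS1* it was 6300 and 6817 CPM in the 2 samples with the least *Slc25a37* (0020 and 0018) and 10356 and 10522 CPM in the 2 with the most (0021 and 0004), and its part in the genotype difference was not tested. With libraries 18 to 23 as a covariate, the log2 fold change was -0.65 (adjusted p = 0.152), with only the compared groups in the fit it was -0.91 (adjusted p = 0.0911), and without Slc11a2KD WT 0001, Slc11a2KD WT 0002 or Slc11a2KD *APP/PS1* 0020 the adjusted p was 0.0768, 0.0554 and 0.0574.

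*Blvra* (chr2:126912556-126939017, 8 exons) was also called in this comparison. It was 23.6, 24.7, 24.8, 36.1 and 37.8 CPM in Slc11a2KD WT and 29.5, 38.2, 41.3, 44.0 and 57.0 CPM in Slc11a2KD *APP/PS1*. Of the 5 *APP/PS1* samples, 4 were above all WT samples, and the log2 fold change was 0.51 (SE 0.16, 1.43-fold, adjusted p = 0.0305, edgeR; exact permutation p = 0.0476, or 0.156 after adjustment over 36 tests). The lowest *APP/PS1* value, in 0004, and the 3 lowest WT values came from libraries 1 to 4. With libraries 18 to 23 as a covariate the log2 fold change was 0.28 (adjusted p = 0.165), with only the compared groups in the fit it was 0.53 (adjusted p = 0.152), and with 0010 kept the adjusted p was 0.058. The call was also lost without Slc11a2KD WT 0001, 0002 or 0003 or Slc11a2KD *APP/PS1* 0021 or 0023 (adjusted p 0.0614 to 0.124).

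The other 6 genes did not pass in the Slc11a2KD mice. *Slc48a1*, the lysosomal heme carrier, was 58.9, 69.2, 71.2, 90.5 and 101 CPM in Slc11a2KD WT and 78.9, 83.9, 97.9, 99.5 and 127 CPM in Slc11a2KD *APP/PS1*, with a log2 fold change of 0.32 (SE 0.15, adjusted p = 0.134, edgeR). It passed with limma voom (0.37, adjusted p = 0.048) and without Slc11a2KD WT 0022 (0.43, adjusted p = 0.0337). *Blvrb* had a difference of 0.20 (95% confidence interval -0.24 to 0.65), *Alas1* 0.11 (-0.07 to 0.30) and *Fech* -0.17 (-0.38 to 0.05). For *Fech*, 4 of 5 *APP/PS1* samples were below all WT samples, and the exact permutation p was 0.0397 (0.143 after adjustment over 36 tests). *Iscu* and *Nfs1* had differences of 0.04 (-0.25 to 0.33) and 0.15 (-0.19 to 0.48). Without the 4 WT samples with the highest choroid plexus sums (Control WT 0012 and 0015, Slc11a2KD WT 0019 and 0022), 5 genes were called, *Slc48a1* (0.56, adjusted p = 0.00731, edgeR) and *Blvrb* (0.65, adjusted p = 0.0236) in addition to the 3, and the Slc11a2KD WT samples that remained were all from libraries 1 to 3.

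**Figure D2:**
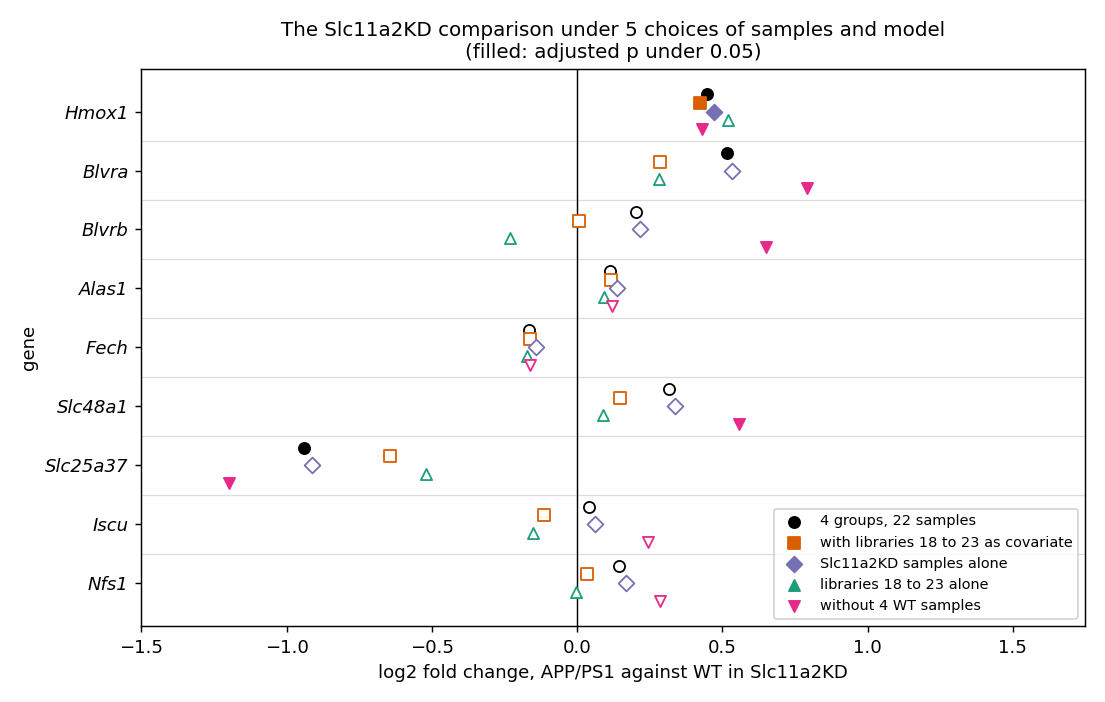
Log2 fold change of each gene (y axis) between *APP/PS1* and WT in Slc11a2KD mice (x axis) under 5 choices of samples and model, filled where the adjusted p was under 0.05. *Hmox1* stays between 0.42 and 0.52 in all 5, *Blvra* ranges from 0.28 to 0.79 and *Slc25a37* from -1.20 to -0.52.

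The difference between libraries 18 to 23 and libraries 1 to 4 within the Slc11a2KD samples was then measured with genotype in the model. It was called in 4 of the 9 genes, all higher in libraries 18 to 23, against 18.8% of 17060 genes tested in these 10 samples. *Blvra* differed by 0.62 (SE 0.15, adjusted p = 0.0151, edgeR), and its 6 values in libraries 18 to 23 (36.1 to 57.0 CPM) were all above the 4 in libraries 1 to 4 (23.6 to 29.5 CPM). *Blvrb* differed by 0.67 (SE 0.19, adjusted p = 0.0265), *Slc48a1* by 0.48 (SE 0.14, adjusted p = 0.0331) and *Iscu* by 0.43 (SE 0.13, adjusted p = 0.0355, all edgeR). *Slc25a37* had a difference of -0.63 (SE 0.28, adjusted p = 0.136), *Nfs1* of 0.30 (adjusted p = 0.299), and *Hmox1*, *Alas1* and *Fech* of 0.07, 0.01 and 0.01. The labels do not say what a library number stands for, and its part in the genotype differences was not tested beyond the fits given here.

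The effect of the knockdown was compared in each genotype, and none of the 9 genes was called in WT or in *APP/PS1*, as for 0% of all genes tested in either comparison. In WT, 1110 genes and none of the 9 had an unadjusted p under 0.05 (edgeR), DESeq2 called 10 genes and limma voom 1, none of them among the 9. *Hmox1* had the lowest p in edgeR, with 53.4 to 64.1 CPM in Slc11a2KD WT against 42.5 to 60.0 in Control WT, a log2 difference of 0.18 (95% confidence interval -0.02 to 0.38) and an adjusted p of 0.963. *Fech* was 46.5, 47.7, 48.0, 49.5 and 50.0 CPM in Slc11a2KD WT against 37.3, 42.8 and 49.4 in Control WT, a difference of 0.17 (-0.04 to 0.37, adjusted p = 1, edgeR), and had the lowest exact permutation p of the 9 genes (0.039, or 0.143 after adjustment over 36 tests). *Slc25a37* had a difference of 0.01 (-0.53 to 0.55), and the other 6 genes had differences between -0.06 and 0.18. None of the 9 genes had groups that did not overlap, against 0.197% of all genes.

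In *APP/PS1*, 3862 genes and 1 of the 9 had an unadjusted p under 0.05 for the knockdown. This was *Blvrb* (chr7:27147275-27165569, 5 exons), at 32.7, 42.0 and 47.3 CPM in Control *APP/PS1* and 53.2, 53.7, 58.7, 69.6 and 77.7 CPM in Slc11a2KD *APP/PS1*. The groups did not overlap, as for 0.853% of all genes, and the exact permutation p was 0.00216 (0.0389 after adjustment over 36 tests). This separation was measured without Control *APP/PS1* 0010, which had 78.8 CPM of *Blvrb* when all 23 samples were scaled together, and with 0010 kept the log2 difference was 0.43 (adjusted p = 0.595, edgeR). The log2 difference of 0.61 (SE 0.20) did not pass in the fit across all genes (adjusted p = 0.205, edgeR; 0.0495 with DESeq2, which called 580 genes, and 0.0623 with limma voom, which called 2). Without Slc11a2KD *APP/PS1* 0004, the only sample of that group from libraries 1 to 4, the difference was 0.66 (adjusted p = 0.0374) and *Blvrb* was the 1 gene of the 9 called, beside 3069 genes or 16.4% of those tested. With libraries 18 to 23 as a covariate it was 0.09 (adjusted p = 1), a fit in which 0004 is the only knockdown sample of this genotype outside those libraries. Choroid plexus markers summed to 1.30 to 4.85 CPM in Control *APP/PS1*, with 4 of 10 at no count, and to 2.07 (0004), 25.3 and 117 to 127 CPM in Slc11a2KD *APP/PS1*, and their part in the *Blvrb* difference was not tested. None of the 10 was called for the knockdown, while 9 had an unadjusted p under 0.05 (edgeR). Differences were positive in 7 of 8 border-associated macrophage markers (median log2 difference 0.61) and 8 of 8 monocyte and neutrophil markers (0.51). Of 12 genes of the response to cell isolation, 3 had positive differences (median -0.63). No gene of these 3 lists was called, and their part in the *Blvrb* difference was not tested. *Slc48a1* had an exact permutation p of 0.0325 (0.143 after adjustment over 36 tests). *Hmox1* had a difference of 0.00 (95% confidence interval -0.20 to 0.20), and the others lay between -0.35 (*Slc25a37*) and 0.28 (*Slc48a1* and *Blvra*).

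The difference between the genotype effects in Slc11a2KD and Control mice was tested as an interaction. None of the 9 genes passed, as for 0% of all genes, and 1703 genes and none of the 9 had an unadjusted p under 0.05 (edgeR), while DESeq2 called 25 genes and limma voom 1, none of them among the 9. The largest term was in *Blvrb*, 0.56 (95% confidence interval -0.04 to 1.16, adjusted p = 0.544). For *Hmox1* it was -0.18 (-0.46 to 0.11), for *Blvra* 0.27 (-0.19 to 0.72) and for *Slc25a37* -0.36 (-1.12 to 0.40). The genotype effects on *Blvra* and *Slc25a37*, called in Slc11a2KD and not in Control mice, were thus not shown to differ between the treatments. The 2 genotype comparisons share no samples, while each treatment comparison shares a group with each of them.

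**Figure D3:**
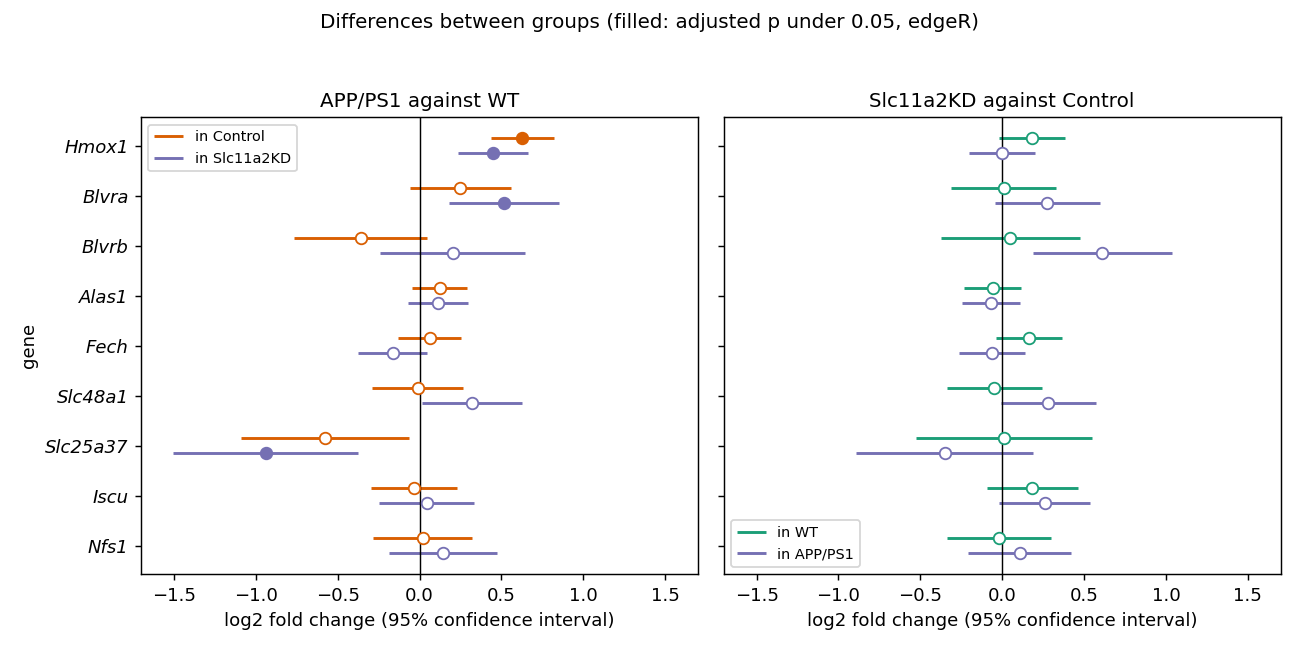
Log2 fold change (x axis) of each gene (y axis) with its 95% confidence interval, for *APP/PS1* against WT on the left and Slc11a2KD against Control on the right, filled where the adjusted p was under 0.05 in edgeR. The 4 filled points are *Hmox1* in both treatments and *Blvra* and *Slc25a37* in Slc11a2KD mice, and no point on the right is filled.

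Overlapping transcripts limit some of these values, since the strand setting of the authors' counting is not given in the sources used here. In GENCODE M39, 82.1% of the exon bases of *Slc48a1* (chr15:97676401-97690573, 3 exons) are shared with *Hdac7* on the other strand, and reads there could be dropped or assigned to either gene. *Hdac7* was at 0 to 3.16 CPM and *Slc48a1* at 58.9 to 127 CPM in the samples used. A long non-coding RNA on the other strand shares 26.2% of the exon bases of *Alas1* (chr9:106110642-106135734, 11 exons), and 3 non-coding or unclassified genes on the other strand share 23.6%, 6.33% and 1.53% of those of *Slc25a37*. *Nfs1* (chr2:155965556-155986374, 13 exons) shares 4.3% with *Gm28036* on its own strand, which is not in the count table, and 7.24% with *Romo1* on the other strand. *Romo1* itself was higher in Slc11a2KD *APP/PS1* than in Slc11a2KD WT (log2 fold change 1.22, SE 0.27, adjusted p = 0.00367, edgeR) and was not called in Control (0.48, adjusted p = 0.243). *Iscu* (chr5:113910776-113917545, 5 exons), *Fech* (chr18:64585985-64623322, 10 exons), *Hmox1* and *Blvrb* share no exon bases with another annotated gene.

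Markers of several other cell types moved with genotype as well, and their part in the differences of the 9 genes was not tested. The summed level of 8 markers of border-associated macrophages was 96.0 to 214 CPM in Control *APP/PS1* against 232 to 488 in Control WT, and 145 to 232 CPM in Slc11a2KD *APP/PS1* against 314 to 542 in Slc11a2KD WT. Both *APP/PS1* ranges lay below those of WT. Monocyte and neutrophil markers summed to 25.3 to 98.3 CPM in Control *APP/PS1* and 98.3 to 348 in Control WT, and to 51.5 to 195 and 107 to 530 in the Slc11a2KD groups. Endothelial markers summed to a median of 110 CPM in Control *APP/PS1* and 184 in Control WT, and of 109 and 152 in the Slc11a2KD groups. Of the 6, 3 were called lower and 1 higher in Control *APP/PS1*, and 3 lower and 0 higher in Slc11a2KD *APP/PS1*. In Control *APP/PS1* 4 of 6 oligodendrocyte and 2 of 6 neuronal markers fell, and in Slc11a2KD *APP/PS1* 2 of 6 and 0 of 6. The astrocyte marker *Gfap* rose 15.0-fold in Control (adjusted p = 2.08e-07, edgeR) and 11.1-fold in Slc11a2KD *APP/PS1* (adjusted p = 4.85e-06), while the other 5 astrocyte markers were not called. For 4 of 7 red cell markers in the table the sums overlapped, at 1.27 to 87.4 and 0.181 to 175 CPM, and at 2.23 to 258 and 4.19 to 265 CPM in the Slc11a2KD groups. Sums of 12 genes of the response to cell isolation overlapped in Control (7383 to 13075 and 6139 to 13972 CPM) and in Slc11a2KD mice (6300 to 10522 in *APP/PS1* and 5588 to 12023 in WT), where the median log2 difference of the 12 genes was -0.41 and 1 rose. Choroid plexus markers reached 992 and 411 CPM in Control WT 0012 and 0015 and 384 and 125 in Slc11a2KD WT 0019 and 0022, and 117 to 127 in 3 of the Slc11a2KD *APP/PS1* samples. In Control *APP/PS1* they summed to at most 4.85 CPM, and 7 of 10 were called lower than in Control WT.

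The rest of the 2 pathways was described through 6 lists of genes, beside the same shares over all genes. Among 15 other genes of heme synthesis, 1 rose in Control *APP/PS1* and 4 rose and 1 fell in Slc11a2KD *APP/PS1*, each against its WT. *Slc25a39*, a mitochondrial glutathione carrier needed for heme synthesis, rose in both (log2 fold change 0.41, adjusted p = 0.00765, and 0.39, adjusted p = 0.0164, edgeR). *Tmem14c*, which carries porphyrin within mitochondria, rose in Slc11a2KD mice (0.64, adjusted p = 0.0283), while *Clpx*, a protease subunit that acts on ALAS enzymes, fell (-0.56, adjusted p = 0.0228).

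Of 6 other genes of heme breakdown and uptake, 5 were tested. In Control *APP/PS1* 3 fell against WT, which were *Slc46a1* (log2 fold change -0.59, adjusted p = 0.00767, edgeR), a folate and heme carrier, *Cd163* (-1.39, adjusted p = 0.00811), the hemoglobin scavenger receptor, and *Hp* (-1.69, adjusted p = 0.0412), which encodes haptoglobin. In Slc11a2KD *APP/PS1* 1 fell, *Cd163* (-1.76, adjusted p = 0.00247). *Cd163* is also a border-associated macrophage marker. *Hmox2*, the constitutive heme oxygenase, singled out after its values were seen, had log2 differences of -0.06 in both comparisons (adjusted p = 0.757 and 0.712).

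Among 12 genes of heme export and heme-sensing regulation, 1 rose and 1 fell in Control *APP/PS1*, and 1 rose and 3 fell in Slc11a2KD *APP/PS1*. *Hebp1*, a heme-binding protein, rose in both (0.86, adjusted p = 0.0139, and 1.12, adjusted p = 0.0033, edgeR), and *Nr1d1*, a heme-binding nuclear receptor, fell in both (-1.11, adjusted p = 0.00779, and -1.24, adjusted p = 0.00581). *Bach1*, the heme-regulated repressor of *Hmox1*, was 128 to 162 CPM in Control WT, 102 to 129 in Control *APP/PS1*, 99.8 to 167 in Slc11a2KD WT and 70.3 to 125 in Slc11a2KD *APP/PS1*. It fell in Slc11a2KD *APP/PS1* (-0.68, SE 0.15, adjusted p = 0.00243) and had a difference of -0.31 in Control *APP/PS1* (adjusted p = 0.144), with an interaction of -0.37 (adjusted p = 0.544). *Nr1d2*, a relative of *Nr1d1*, fell in Slc11a2KD *APP/PS1* (-0.56, adjusted p = 0.00697).

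The iron-sulfur lists held more calls in Slc11a2KD than in Control mice, as did all genes tested (16.2% against 10.5%), and no gene had an interaction that passed. Among 17 other genes of mitochondrial assembly tested, 1 rose in Control *APP/PS1*, while 6 rose and 1 fell in Slc11a2KD *APP/PS1*. The median log2 difference of this list was 0.25 in Control and 0.63 in Slc11a2KD mice, that of the other 5 lists ran from -0.59 to 0.23 and from -0.39 to 0.45, and that of all genes was -0.02 and -0.07. *Hscb*, the co-chaperone that helps release clusters from ISCU, rose in both (0.85, adjusted p = 0.0215, and 1.28, adjusted p = 0.00189, edgeR). *Gfer* (0.82, adjusted p = 0.00211), a sulfhydryl oxidase, and the cluster maturation factors *Bola1* (0.99, adjusted p = 0.00638) and *Bola3* (1.10, adjusted p = 0.00668) rose in Slc11a2KD *APP/PS1*. The scaffold *Iscu* and the desulfurase *Nfs1*, which act before these factors, had differences of 0.04 and 0.15 there, as given above. Among 11 genes of cytosolic assembly 1 rose in Control and 3 in Slc11a2KD *APP/PS1*. These were *Bola2* in both (1.00, adjusted p = 0.00816, and 1.59, adjusted p = 0.000305), and *Ciao2b* (0.79, adjusted p = 0.0135) and *Glrx3* (0.45, adjusted p = 0.0425) in Slc11a2KD mice.

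Of 19 genes listed for proteins that use heme or iron-sulfur clusters, which include partner subunits and the lipoyltransferase *Lipt1*, 4 rose and 1 fell in Control *APP/PS1*, and 7 rose and 2 fell in Slc11a2KD *APP/PS1*. The NADPH oxidase subunits *Cyba* (0.72, adjusted p = 0.0174, and 1.35, adjusted p = 0.00014, edgeR) and *Cybb* (1.71, adjusted p = 0.000883, and 1.05, adjusted p = 0.0434) and the inducible prostaglandin synthase *Ptgs2* (2.14, adjusted p = 0.00216, and 1.61, adjusted p = 0.0235) rose in both. *Ptgs1*, its constitutive relative, fell in both (-0.58, adjusted p = 0.000548, and -0.69, adjusted p = 0.000289). Over all 18759 genes, 1124 rose and 841 fell in Control *APP/PS1*, and 1832 rose and 1202 fell in Slc11a2KD *APP/PS1*. Without Slc11a2KD *APP/PS1* 0004, the counts in Slc11a2KD mice were 7 risen and 1 fallen for heme synthesis, 0 and 1 for breakdown and uptake, 1 and 3 for export and regulation, 8 and 1 for mitochondrial assembly, 5 and 0 for cytosolic assembly and 8 and 2 for these 19 genes, beside 2429 and 2352 of 18700 genes. With all 22 samples, no gene of the 6 lists was called for the knockdown in either genotype or for the interaction. Without 0004, genes of all 6 lists were called for the knockdown in *APP/PS1*, beside 1373 risen and 1696 fallen of 18700 genes. These were 4 risen of heme synthesis, 1 fallen of heme breakdown and uptake, 2 fallen of export and regulation, 6 risen and 2 fallen of mitochondrial assembly, 4 risen of cytosolic assembly, and 5 risen and 3 fallen of these 19 genes.

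**Figure D4:**
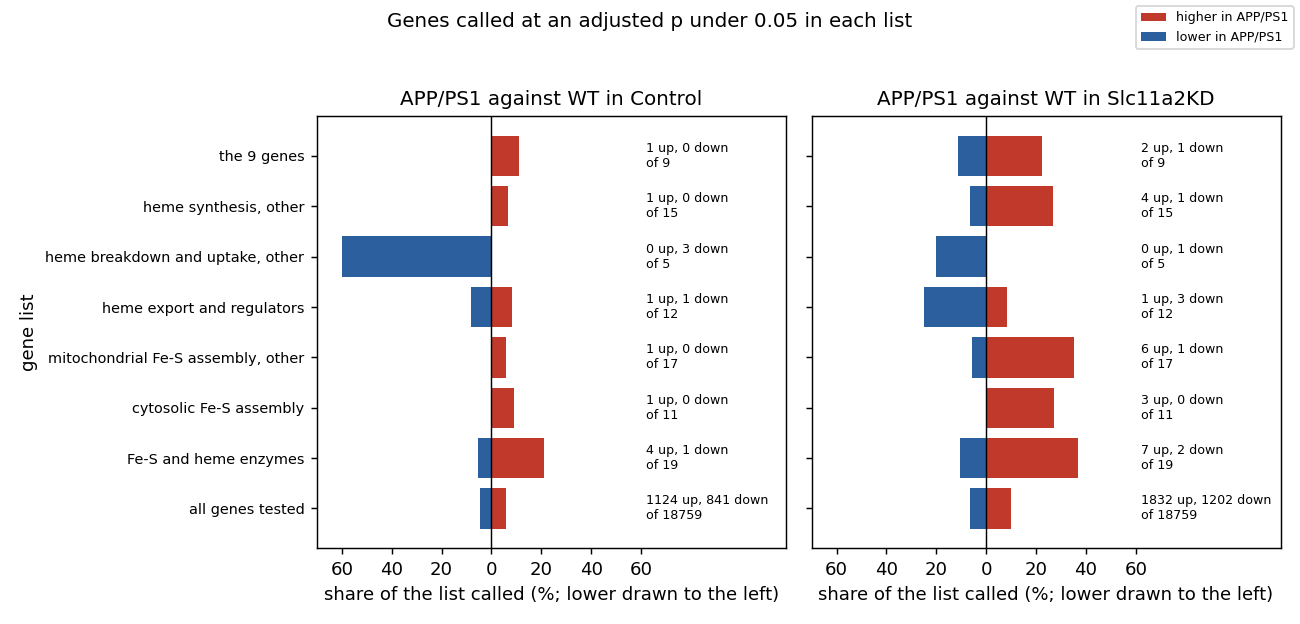
Share of each gene list (y axis) called higher (red, to the right) or lower (blue, to the left) in *APP/PS1* than in WT, in percent of the genes tested (x axis), for Control mice on the left and Slc11a2KD mice on the right. Counts stand beside each bar, with all genes tested at the bottom, and the 9 genes had 1 call in Control and 3 in Slc11a2KD mice.

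The genes with the most similar pattern over the 22 samples were looked up for the 3 genes with the lowest adjusted p-values, as those with the smallest root mean square difference in centred log2 CPM among genes of at least 10 CPM. For *Hmox1* these included *Samsn1* (0.15) and *Fance* (0.16), where the median over all such genes was 0.43. For *Slc25a37* they were *Marcksl1* (0.24), *Fbxo30* (0.26) and *Midn* (0.27), with a median of 0.67. For *Blvra* they were *Fadd*, *Derl1* and *Uqcrc2* (0.13 each), with a median of 0.44. These are descriptions over samples that share genotype, treatment and library numbers.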

How the data were processed

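The authors trimmed the reads with Trim Galore (0.6.7 per the submitters' processing notes), mapped them with STAR, which also counted the reads of each gene, and they deposited whole-number counts for 18876 genes in 23 samples. Whether strand was used in counting is not given in the sources used here. A second deposited table, a signal of counts divided by size factors that the authors made with DESeq2 (1.36.0 in the same notes), was not used. The study removed 1 Control *APP/PS1* sample as an outlier, taken here as 0010, the one its heat map does not show, and 22 samples were used. No per-sample column was left unmapped (0).

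Of the genes, 18759 reached 5 counts in 3 or more samples. The quasi-likelihood test of edgeR 4.0.16 (R 4.3.3) was fitted to them with TMM scaling and the 4 groups together. A gene was called at a Benjamini-Hochberg adjusted p under 0.05 over these genes. Confidence intervals are 95%, from the fitted standard error. Log2 CPM used a prior count of 2. Single genes were also compared by two-sided exact permutation tests on log2 CPM. The steps were tested on simulated data.

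The 9 genes, the lists and the tests were chosen with earlier results of these data known. The text names the 9 genes, up to 4 genes per list with the smallest adjusted p-values among those called in any comparison, the 3 most similar genes for each of 3 members, *Slc11a2*, and overlapping genes where a value bears on a member. *Hmox2* and *Lipt1* are also named, outside these rules. Some genes and sequences that these rules select are not reported here. Positions came from GENCODE M39 on GRCm39 by Ensembl identifier, while the authors' table was made with another release. Alternatives were DESeq2 1.42.0, limma voom 3.58.1 with sample quality weights, DESeq2's size factors, other gene filters, a limit of 1 on the log2 fold change, only the compared groups, 0010 kept, libraries 18 to 23 (against 1 to 17) as a covariate, 4 WT samples left out and each sample left out in turn. Libraries 18 to 23 alone were added after seeing the data.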

Additional observations from a re-analysis of the deposited data

Results flagged for a closer look

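Among 36 sets of values (9 genes in 4 groups), 1 had a sample set far from the others of its group, where chance marks about 1 in 20 sets. It was *Nfs1* in Slc11a2KD *APP/PS1* 0021, at 39.17 CPM, while the other 4 samples were at 25.6, 26.5, 27.7 and 27.9 CPM.

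In Control *APP/PS1* 0010, the sample left out of the comparisons, 4 of the 9 genes were above the highest of the other 12 Control samples when all 23 samples were scaled together. *Blvra* was at 53.66 CPM against at most 37.86, *Blvrb* at 78.77 against 73.24, *Slc48a1* at 103.2 against 91.08 and *Iscu* at 169.2 against 153.8 CPM. In the same sample *Slc25a37* (5.19 CPM) and *Fech* (34.3 CPM) were below the lowest other Control values of 10.8 and 37.0 CPM, while *Hmox1* (75.8 CPM), *Alas1* (79.6 CPM) and *Nfs1* (28.9 CPM) lay within the Control range.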

How the results depend on the processing

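Of 999 fold changes of the 9 genes under alternatives, 890 kept their direction and their side of the threshold, 16 lost a call and 6 gained one. In 87 a fold change that was not called took the other sign, and 0 called ones did. Most of the 999 had no call to lose, since the main fit called 1 of the 9 genes by genotype in Control and 3 in Slc11a2KD mice. All 16 lost calls were in the Slc11a2KD genotype comparison, in *Blvra*, *Slc25a37* and *Hmox1*. *Hmox1* in Control *APP/PS1* passed under all fold-change alternatives run (0.58 to 0.68). No paired analysis was possible because the sample titles give a number and a group, and no litter or animal by which to pair.

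With *APP/PS1* against WT in Control, an added limit of 1 on the log2 fold change left 0 of the 9 genes and 918 genes, limma voom called 3421 genes and the fit of only the compared groups 3241. In Slc11a2KD, the limit left 0 of the 9 and 1105 genes, only the compared groups gave 1 of the 9 (*Hmox1*) and 1041 genes, libraries 18 to 23 as a covariate 1 (*Hmox1*) and 1773, libraries 18 to 23 alone (an alternative chosen after seeing the data) 0 and 327, and leaving out the 4 WT samples 5 and 5135. With 0010 kept, *Blvra* had an adjusted p of 0.058. Leaving out 1 sample each gave 1 to 4 of the 9 genes (1 without Slc11a2KD WT 0001 or 0002) and 1977 to 4781 genes, with the lowest without Slc11a2KD WT 0002, 0003 or *APP/PS1* 0021 (1977, 2022 and 1996) and the highest without *APP/PS1* 0004.

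For the knockdown in WT, DESeq2 called 10 genes, limma voom 1, and leaving out the 4 WT samples 2, with 0 to 1 when 1 sample was left out. In *APP/PS1*, DESeq2 called 1 of the 9 (*Blvrb*) and 580 genes, limma voom 2 and leaving out the 4 WT samples 1, with 0 to 1 of the 9 and 0 to 3069 genes when 1 sample was left out (3069 without 0004). For the interaction, DESeq2 called 25 genes and limma voom 1, with 0 to 1 when 1 sample was left out. The causes were not tested. The lowest count of any of the 9 genes in a sample used was 213, in *Slc25a37*, while 5 or 6 samples per group and library numbers that go with treatment limit the comparisons.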
